A study of Mus musculus with 2 samples.

Results

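Brg1 islands were examined at 57 genes of the Wnt signalling pathway in mouse medulloblastoma. An island is a region enriched for ChIP-seq reads as called by SICER, a peak caller for broad signals. The genes were taken by role from a list of ligands, receptors, transducers and feedback targets, and all 57 were found among the 21631 protein-coding genes of the RefSeq annotation (mm10) on the autosomes and chromosome X. They comprised 15 ligands, 17 receptors and co-receptors, 2 membrane ubiquitin ligases, 6 secreted inhibitors and 17 intracellular members. An island was counted for a gene when any base of it lay in the gene or within 5 kb, and as distal when it lay further away but within 50 kb.

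The tumours formed spontaneously in mice carrying CAG-CreER and Rosa26-SmoM2. SmoM2 is an activated form of Smoothened, the transducer of the Hedgehog signal, and the CAG promoter that drives CreER is active in many cell types. Dissociated tumour cells gave 1 ChIP library, made with the J1 antibody against Brg1 and its paralogue Brm, and 1 input library, which was not analysed here. Islands can therefore hold either ATPase, and how many animals were pooled is not given in the sources used here. In the deposited file there were 5727 islands, with a median of 68 reads and a median width of 2200 bp. The genes taken as markers of the granule lineage and of Shh tumours were Atoh1, Barhl1, Zic1, Neurod1, Gli1 and Ptch1. All 6 had an island in the gene or within 5 kb, against 16.9% of all protein-coding genes. The markers were chosen with earlier results of these data known, so they are not an independent check of cell type. With 1 library there was no spread between tumours. Because only regions past the caller's threshold were listed, Brg1 may also be bound at genes where no island is reported.

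Brg1 and Brm are the alternative ATPases of the BAF chromatin remodelling complexes, which move nucleosomes and open or close regulatory DNA. In the canonical Wnt pathway, a secreted Wnt protein binds a Frizzled receptor and an Lrp co-receptor at the cell surface. Dishevelled proteins then hold back the destruction complex of Apc, Axin and Gsk3b, and beta-catenin (Ctnnb1) enters the nucleus to act with TCF/LEF factors. Several of the genes switched on in this way, Axin2 among them, feed back on the pathway. In the brain Wnt1 patterns the midbrain and anterior hindbrain, and medulloblastomas driven by Wnt signalling form a group separate from the Shh type studied here.

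The RefSeq promoter windows of the members are shown first for the genes where an island covered a gene start. Each window runs from 250 bases before to 50 after an annotated start, 300 bases in all, 5′ to 3′ on the strand of the gene (GRCm38.p6, which is mm10). Windows were given for 43 of the 57 members, and 5 of these 43 genes had an island over one (Axin2, Tcf7l2, Fzd1, Fzd9 and Sfrp2), against 8.87% of the 17274 protein-coding genes with a window. Capitals mark the letters that were searched on both strands. These were CTTTGAT and CTTTGAA for TCF/LEF, TGGGTGGTC for GLI, CAGATG and CAGCTG for E-boxes, TTGGCA for an NFI half-site, CCAAT, and GGGCGG for the GC box. Matches of the different motifs may overlap one another.
Axin2, a feedback inhibitor (chr11:108920099-108920398, plus strand): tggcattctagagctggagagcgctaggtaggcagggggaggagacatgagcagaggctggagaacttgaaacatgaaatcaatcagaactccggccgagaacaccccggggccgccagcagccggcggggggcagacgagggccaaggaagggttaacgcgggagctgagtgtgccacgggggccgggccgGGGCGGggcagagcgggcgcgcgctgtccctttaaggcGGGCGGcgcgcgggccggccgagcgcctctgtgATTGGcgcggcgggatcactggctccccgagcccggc
Tcf7l2, a TCF/LEF factor (chr19:55741560-55741859, plus strand): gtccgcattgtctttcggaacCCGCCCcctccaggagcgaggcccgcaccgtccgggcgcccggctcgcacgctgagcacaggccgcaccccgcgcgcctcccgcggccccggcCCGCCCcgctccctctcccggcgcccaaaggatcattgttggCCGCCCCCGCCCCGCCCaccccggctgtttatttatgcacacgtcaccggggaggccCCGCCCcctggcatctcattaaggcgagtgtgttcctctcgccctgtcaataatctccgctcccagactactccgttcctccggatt
Fzd1, a Wnt receptor (chr5:4758167-4758466, minus strand): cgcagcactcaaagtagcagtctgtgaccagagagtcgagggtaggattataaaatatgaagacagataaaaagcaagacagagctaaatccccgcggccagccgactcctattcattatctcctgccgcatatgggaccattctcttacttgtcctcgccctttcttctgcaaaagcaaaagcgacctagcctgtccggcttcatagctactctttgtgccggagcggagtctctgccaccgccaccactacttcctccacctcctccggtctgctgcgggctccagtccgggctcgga
Fzd9, a Wnt receptor (chr5:135250998-135251297, minus strand): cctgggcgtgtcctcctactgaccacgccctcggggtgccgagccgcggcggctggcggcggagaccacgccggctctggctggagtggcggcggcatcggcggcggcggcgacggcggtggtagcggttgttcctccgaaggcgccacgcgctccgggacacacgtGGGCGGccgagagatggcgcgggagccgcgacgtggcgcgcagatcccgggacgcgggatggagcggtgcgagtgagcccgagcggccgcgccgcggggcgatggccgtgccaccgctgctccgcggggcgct
Sfrp2, a secreted inhibitor (chr3:83766071-83766370, plus strand): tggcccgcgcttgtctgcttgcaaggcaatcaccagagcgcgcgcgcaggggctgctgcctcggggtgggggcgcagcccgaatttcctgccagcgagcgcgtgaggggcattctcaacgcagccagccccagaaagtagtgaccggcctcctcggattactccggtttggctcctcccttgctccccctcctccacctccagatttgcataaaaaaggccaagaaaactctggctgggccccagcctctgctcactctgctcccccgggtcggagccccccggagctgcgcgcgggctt

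For comparison, 4 windows with no island over them are shown: the ligand window richest in CpG (Wnt9a), and the 3 member windows that held a TCF/LEF match (Wnt11, Wnt5b and Dkk1).
Wnt9a, a ligand (chr11:59306680-59306979, plus strand): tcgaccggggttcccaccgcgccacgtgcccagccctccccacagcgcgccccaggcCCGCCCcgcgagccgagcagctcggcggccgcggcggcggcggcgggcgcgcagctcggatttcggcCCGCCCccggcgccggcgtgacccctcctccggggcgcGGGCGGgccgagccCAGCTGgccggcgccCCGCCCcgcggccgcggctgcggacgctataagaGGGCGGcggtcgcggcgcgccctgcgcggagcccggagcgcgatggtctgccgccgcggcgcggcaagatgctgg
Wnt11, a ligand (chr7:98834862-98835161, plus strand): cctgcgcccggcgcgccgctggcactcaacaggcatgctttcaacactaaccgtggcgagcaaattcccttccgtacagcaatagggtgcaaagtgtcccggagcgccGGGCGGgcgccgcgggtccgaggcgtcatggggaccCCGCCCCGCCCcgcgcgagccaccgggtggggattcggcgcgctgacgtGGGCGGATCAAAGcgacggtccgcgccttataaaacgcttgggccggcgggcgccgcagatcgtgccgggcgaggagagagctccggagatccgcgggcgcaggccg
Wnt5b, a ligand (chr6:119449337-119449636, minus strand): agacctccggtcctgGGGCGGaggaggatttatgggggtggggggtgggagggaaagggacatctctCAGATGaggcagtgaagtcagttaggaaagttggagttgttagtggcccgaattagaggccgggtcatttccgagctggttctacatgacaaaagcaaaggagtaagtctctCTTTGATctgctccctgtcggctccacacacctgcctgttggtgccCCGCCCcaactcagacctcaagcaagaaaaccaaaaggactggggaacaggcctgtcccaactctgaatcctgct
Dkk1, a secreted inhibitor (chr19:30549447-30549746, minus strand): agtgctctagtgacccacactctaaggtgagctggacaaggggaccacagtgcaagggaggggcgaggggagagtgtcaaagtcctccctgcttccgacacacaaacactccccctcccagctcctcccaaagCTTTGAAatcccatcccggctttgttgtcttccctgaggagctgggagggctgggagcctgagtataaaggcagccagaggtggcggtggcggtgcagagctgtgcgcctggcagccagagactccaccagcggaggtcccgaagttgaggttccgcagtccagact

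The 5 windows under an island were unlike one another in these letters. Tcf7l2 held the GC box many times over and Axin2 held it together with a CCAAT box. Fzd9 had a single GC box in a window of 53 CpG dinucleotides, whereas the windows of Fzd1 and Sfrp2 had no match to any of the searched letters. A TCF/LEF match stood in 3 of 55 member windows (5.45%) and in 7.61% of the 21045 windows of protein-coding genes. Under an island 0 of the 5 member windows had one, against 4.95% of all windows under an island. With 5 windows, a count of 0 does not set them apart from that share. No member window had the GLI letters, which 0.181% of all windows had. E-box letters CAGATG were in 7.27% of member windows and 14.4% of all windows, and CAGCTG in 10.9% and 15.7%. The NFI half-site stood in 3.64% of member windows and 13.1% of all, and the CCAAT letters in 30.9% and 38.5%. The GC box was in 74.5% of member windows, against 46.7% of all windows and 70.7% of all windows under an island. Median GC content was 67.3% in member windows and 56.7% in all windows, and its bearing on these shares was not tested. The 55 member windows came from 43 genes, and some windows of the same gene overlap. Absence of the searched letters applies to the 300 bases of a window only.

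Across the pathway, 17 of 57 members (29.8%, Wilson 95% interval 19.5 to 42.7) had an island in the gene or within 5 kb, against 16.9% of all protein-coding genes. The members were distributed unevenly over the roles. Receptors had islands most often, at 9 of 17 (52.9%, interval 31.0 to 73.8), and the ligands had none, at 0 of 15. A count of 0 in 15 genes allows a share of up to 20%, and the Wilson upper bound is 20.4%, so the ligand share was not distinguishable from the 16.9% of all genes. The intervals of receptors and ligands did not overlap by this count. Within 5 kb of a gene end they did, with 5 of 17 receptors (29.4%, interval 13.3 to 53.1) and 0 of 15 ligands (0 to 20.4). Intracellular members had islands in 4 of 17 (23.5%, interval 9.56 to 47.3), secreted inhibitors in 3 of 6 and the membrane ubiquitin ligases in 1 of 2. These intervals cover counting error only and treat genes as independent. No p-value is given for the roles, because the members were chosen with earlier results of these data known.

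**Figure D1:**
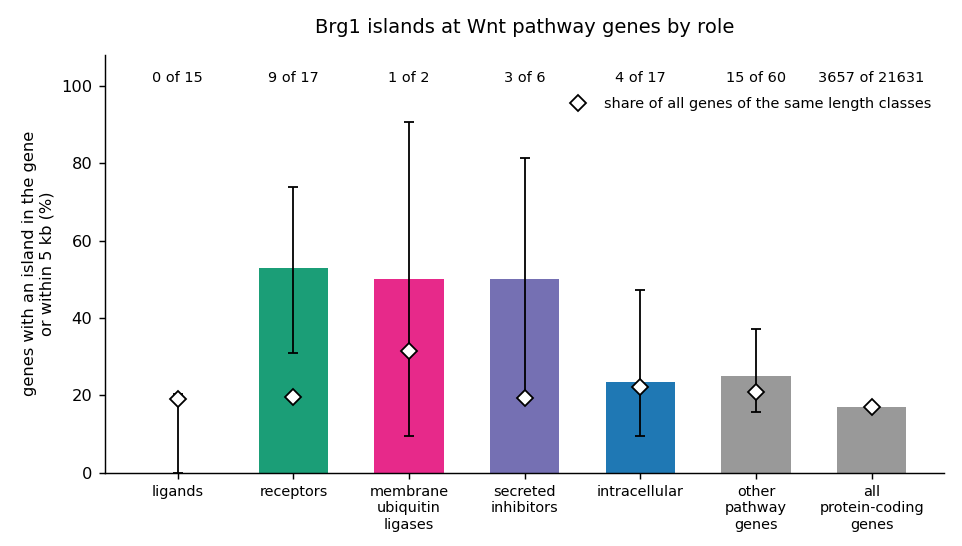
Share of genes with a Brg1 island in the gene or within 5 kb (y axis, %) for each role, for other pathway genes and for all protein-coding genes, with Wilson 95% intervals. White diamonds give the share of all protein-coding genes in the same classes of gene length. Receptors stand at 52.9% and ligands at 0, against 16.9% of all protein-coding genes.

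Gene length bears on such counts, because a long gene offers more room for an island. Of all protein-coding genes, 7.60% in the shortest and 31.4% in the longest of 4 equally large length classes (the longest over 44.9 kb) had one. At the shares of their length classes the 57 members would give 11.8 genes, where 17 were found. The 17 receptors would give 3.33, where 9 were found, and the 15 ligands 2.87, where 0 were found. The 17 intracellular members would give 3.77, where 4 were found. Within the longest class 7 of 8 receptors had an island, 3 of 8 intracellular members did, and 0 of 4 ligands. Counted per length of gene with 5 kb on each side, receptors had 0.808 islands per 100 kb, intracellular members 0.377 and ligands 0, against 0.395 over all protein-coding genes. The intracellular members were thus close to the whole set of genes on each of these measures.

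None of the Wnt ligand genes had an island in the gene or within 5 kb. These were Wnt1, Wnt2, Wnt2b, Wnt3, Wnt3a, Wnt4, Wnt5a, Wnt5b, Wnt6, Wnt7a, Wnt7b, Wnt8b, Wnt9a, Wnt10b and Wnt11. The gap to the nearest island ran from 8.67 kb at Wnt2 to 431 kb at Wnt5a, with a median of 174 kb, against a median of 125 kb over all protein-coding genes. The ligand genes are not independent of one another here, since neighbours can share a nearest island. Wnt1 and Wnt10b lie side by side on chromosome 15, and both had the same island of 165 reads as their nearest, 158 kb and 174 kb away. Likewise Wnt3a and Wnt9a, neighbours on chromosome 11, shared a nearest island of 103 reads at 292 kb and 351 kb.

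Ligand promoters did not lack CpG dinucleotides. The 16 ligand windows had a median of 29 CpG (range 4 to 58), against 32 in the 10 receptor windows, 26 in the 23 intracellular windows and 13 in all windows of protein-coding genes. All windows of protein-coding genes under an island had a median of 25. Among genes with a window of at least 20 CpG, a limit chosen after the values were seen, 0 of 11 ligand genes had an island in the gene or within 5 kb. In the same class 3 of 7 receptor genes and 2 of 14 intracellular genes had one, against 26.8% of 6802 protein-coding genes. Over all roles 7 of 34 members with such a window (20.6%) had one, below the share of protein-coding genes in this class, whereas the share of all 57 members was above that of all protein-coding genes. The 0 of 11 allows a share of up to 27.3%, and the Wilson upper bound is 25.9%. The 26.8% of all genes in the class lies between these limits, so this count does not settle a difference.

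**Figure D2:**
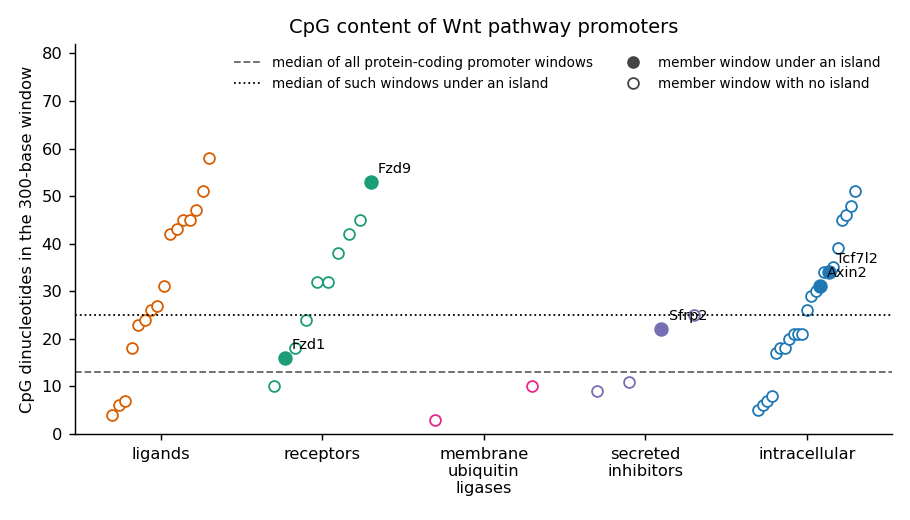
CpG dinucleotides in each 300-base promoter window (y axis, count) of the members, by role; a gene with several annotated starts has several points. Filled points lie under an island, and lines mark the medians of all windows of protein-coding genes (13) and of those under an island (25). Ligand windows span 4 to 58 CpG with no filled point.

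Of the 15 ligands, 3 (20%, Wilson 95% interval 7.05 to 45.2) had a distal island, against 22.1% of all protein-coding genes. At the shares of their length classes 3.38 of the 15 would have one. Wnt7b, a ligand of the developing brain, had 4 distal islands in a row. All lay beyond its higher-coordinate end and had Wnt7b as the nearest protein-coding gene. They lay 16.0, 28.6, 31.2 and 44.0 kb from the gene and held 102, 68, 84 and 52 reads. The nearest held the most reads and was the widest, but was low for its width (percentile 22.3 of 94 islands of 4000 bp). The third of them had more reads than most islands of its width, at percentile 95.4 of 503 islands of 2200 bp. The second stood at percentile 89.4 of its width and the fourth at 7.56. Wnt2 had an island of 69 reads at 8.67 kb, past the 3′ end of the gene (chr6:17974201-17976800). Wnt11 had one of 43 reads 19.2 kb from the gene on the upstream side (chr7:98814891-98815890), and that island overlapped a pair of tRNA genes, n-TPtgg8 and n-TPagg7. The window of Wnt11 printed above, with its TCF/LEF match, was not under it.

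The Frizzled genes, which encode the receptors that bind Wnt proteins directly, had islands in 2 of 10. Their share of 20% had a Wilson 95% interval of 5.67 to 51.0, which includes the 16.9% of all protein-coding genes. The count of 2 was not below the one at the shares of their length classes. Fzd1 had an island of 85 reads (exact Poisson 95% interval 67.9 to 105) on chromosome 5 (chr5:4757001-4760000), across the start of the gene. Fzd9 had 73 reads (57.2 to 91.8) in an island across its start (chr5:135249331-135252130), which also lay within 5 kb of Baz1b, a chromatin remodeller gene. Both islands covered the windows printed above. Fzd3, Fzd4, Fzd5, Fzd6, Fzd7, Fzd8 and Fzd10 had no island within 50 kb. Fzd2 had a distal one of 49 reads, 28.6 kb away. The range of gaps was wide, with Fzd8 at 965 kb and Fzd4 at 629 kb from any island.

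In contrast, all 7 receptors and co-receptors other than Frizzled had an island in the gene or within 5 kb, in a division made after the values were seen. These genes were long, with a median of 120 kb against 4.59 kb for Frizzled genes, and at the shares of their length classes 2.20 of the 7 would have one. Per 100 kb of gene and flanks they had 0.800 islands, the Frizzled genes, with 2 islands in all, 0.847, and all protein-coding genes 0.395.

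Among the co-receptors, Lrp6, which pairs with Frizzled in canonical signalling, had an island across its higher-coordinate end with 77 reads (60.8 to 96.2; chr6:134565583-134568382). Its relative Lrp5 had islands of 63 and 56 reads at its higher-coordinate end. One of them crossed that end (chr19:3684601-3686800) and the other lay inside the gene, 4385 bp from it. The tyrosine kinase-like receptors Ror1 and Ror2, which bind Wnt5a and act outside the beta-catenin route, carried the receptor islands with the most reads. Ror2 had 154 reads (131 to 180) over 5400 bp (chr13:53232632-53238031), rank 160 of the 5727 islands by reads. The Ror2 island had 13 others of its width, too few for a percentile. Ror1 had 117 reads (96.8 to 140) over 4200 bp (chr4:100126396-100130595), at percentile 42.0 of 81 islands of that width. Both islands lay inside the gene, 48093 bp downstream of the start in Ror2 and 30605 bp downstream in Ror1. Ryk, a further Wnt receptor related to kinases, had 63 reads at 5351 bp downstream of its start.

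The R-spondin receptors Lgr4 and Lgr5, once bound by their ligands, raise Wnt signalling by removing the membrane ubiquitin ligases. Lgr5, itself a Wnt target and a stem cell marker, had an island of 69 reads (chr10:115569945-115571744) inside the gene, also assigned to A930009A15Rik, at percentile 90.7 of 483 islands of 1800 bp. Lgr4 had an island of 58 reads inside the gene, 41397 bp downstream of its start. A second one of 63 reads lay 2787 bp beyond its end and overlapped Ccdc34. The islands of Lgr4 were low for their widths, at percentiles 19.4 and 27.8.

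**Figure D3:**
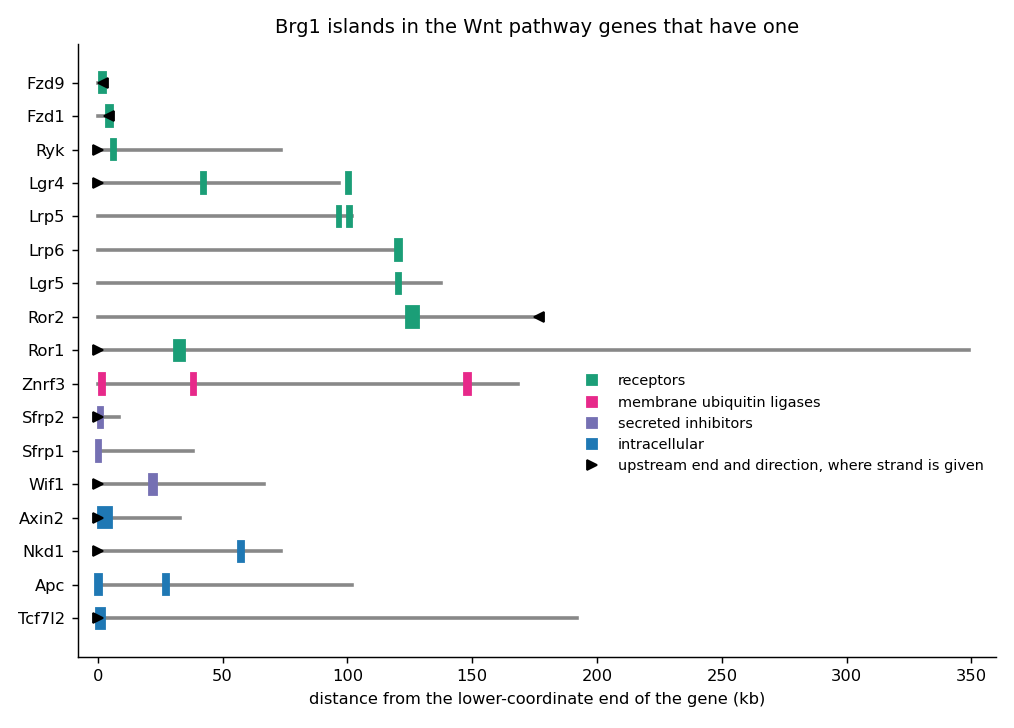
Position of the islands (coloured blocks) along the 17 members that have one in the gene or within 5 kb; grey lines are genes, drawn from the lower-coordinate end (x axis, kb), and arrowheads mark the upstream end where a strand was given. In Axin2, Tcf7l2, Fzd1, Fzd9 and Sfrp2 the island lies at the upstream end, and in Ror1, Ror2, Nkd1, Wif1 and Ryk further inside.

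Znrf3 and Rnf43 are the ubiquitin ligases that clear Frizzled receptors from the membrane, and both are Wnt targets. Znrf3 had 3 islands in the gene or within 5 kb, the most of any member by this count, with 74, 61 and 79 reads. They lay 469 bp, 37469 bp and 146669 bp inside the gene from its lower-coordinate end on chromosome 11. Rnf43 had no island within 50 kb, the nearest being 69.8 kb away with 87 reads. The pair of ligases thus differed in this list, at the depth of 1 library.

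Of the secreted inhibitors, which bind Wnt proteins or their co-receptors outside the cell, Sfrp1, Sfrp2 and Wif1 had an island. Sfrp2 had 60 reads (45.8 to 77.2) in an island across its start (chr3:83765679-83767678). Sfrp1 had 67 reads (51.9 to 85.1) in an island across its lower-coordinate end (chr8:23410529-23412528). It also had distal islands of 53 and 131 reads, 20.1 kb and 26.7 kb beyond its higher-coordinate end, and Sfrp1 was the nearest protein-coding gene to both. The one of 131 reads had more reads than any other distal island of the members. Wif1 had 81 reads 20341 bp downstream of its start, a low count for its width (percentile 13.7 of 197 islands of 3400 bp). The Dickkopf genes Dkk1, Dkk2 and Dkk3, whose best known products block Lrp co-receptors, had no island within 50 kb. Their gaps were 513 kb, 1138 kb and 73.6 kb. At the shares of their length classes 0.551 of these 3 genes would have an island in the gene or within 5 kb.

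Inside the cell, Axin2 stood out by reads. This scaffold of the destruction complex is switched on by Wnt signalling in many tissues and limits it. Its island held 138 reads (116 to 163) over 5600 bp (chr11:108918087-108923686), rank 244 of the 5727, and covered the annotated start whose window is printed above. Only 9 other islands had that width, too few for a percentile. Per 200 bp it held 4.93 reads, below the median of 6.27 over all islands, so its high count went with its width. Axin1, the constitutive form, had no island within 50 kb, and its nearest lay 87.4 kb away. Apc, a further scaffold of the complex, had 73 reads (57.2 to 91.8) in an island on its lower-coordinate end and one of 69 reads inside the gene, 26250 bp from that end. No island was found within 50 kb of the kinase gene Gsk3b (98.2 kb) or of Ctnnb1, which encodes beta-catenin (65.5 kb). Of the 4 destruction complex genes (Axin1, Axin2, Apc and Gsk3b), 2 thus had an island in the gene or within 5 kb. The shares of their length classes would give fewer, but 4 genes are too few to set the complex apart.

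Of the 4 TCF/LEF factors, which bring beta-catenin to DNA, 1 had an island in the gene or within 5 kb. This was close to the count at the shares of their length classes, so it does not set the family apart. Over all protein-coding genes the share was 16.9%. The island was that of Tcf7l2. It held 87 reads (69.7 to 107) over 3600 bp across the start of the gene (chr19:55741111-55744710), the window rich in GC boxes above, and was low for its width (percentile 16.2 of 136 islands). It also overlapped the lncRNA gene Gm31734. Beyond the 3′ end of Tcf7l2 lay distal islands of 72 and 37 reads, 6.45 kb and 17.7 kb away. Lef1 and Tcf7l1 had none within 50 kb, and Tcf7 had one of 72 reads at 48.5 kb. Nkd1, a Wnt-induced antagonist of Dishevelled, had an island of 98 reads (79.6 to 119) inside the gene (chr8:88577502-88580101), at percentile 97.7 of 415 islands of 2600 bp, the highest percentile among the member islands that could be ranked. Its relative Nkd2 had its nearest island 502 kb away.

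No island lay in or within 5 kb of the Dishevelled genes Dvl1, Dvl2 and Dvl3 or of the coactivator genes Bcl9, Pygo1 and Pygo2, which link beta-catenin to transcription. At the shares of their length classes 0.374 of the 3 Dishevelled genes and 0.551 of the 3 coactivator genes would have one. The share of all protein-coding genes was 16.9%, so these counts of 0 set neither group apart. Dvl2, Bcl9, Pygo1 and Pygo2 had distal islands, all of which lay in or within 5 kb of another protein-coding gene. Those beside Dvl2, of 118 and 63 reads, lay at Dlg4, a synaptic scaffold gene. The island 45.0 kb from Bcl9 had 27 reads, the minimum of the list, and overlapped a tRNA gene, n-TEctc12. Dvl1 and Dvl3 had none within 50 kb, at gaps of 191 kb and 181 kb.

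**Figure D4:**
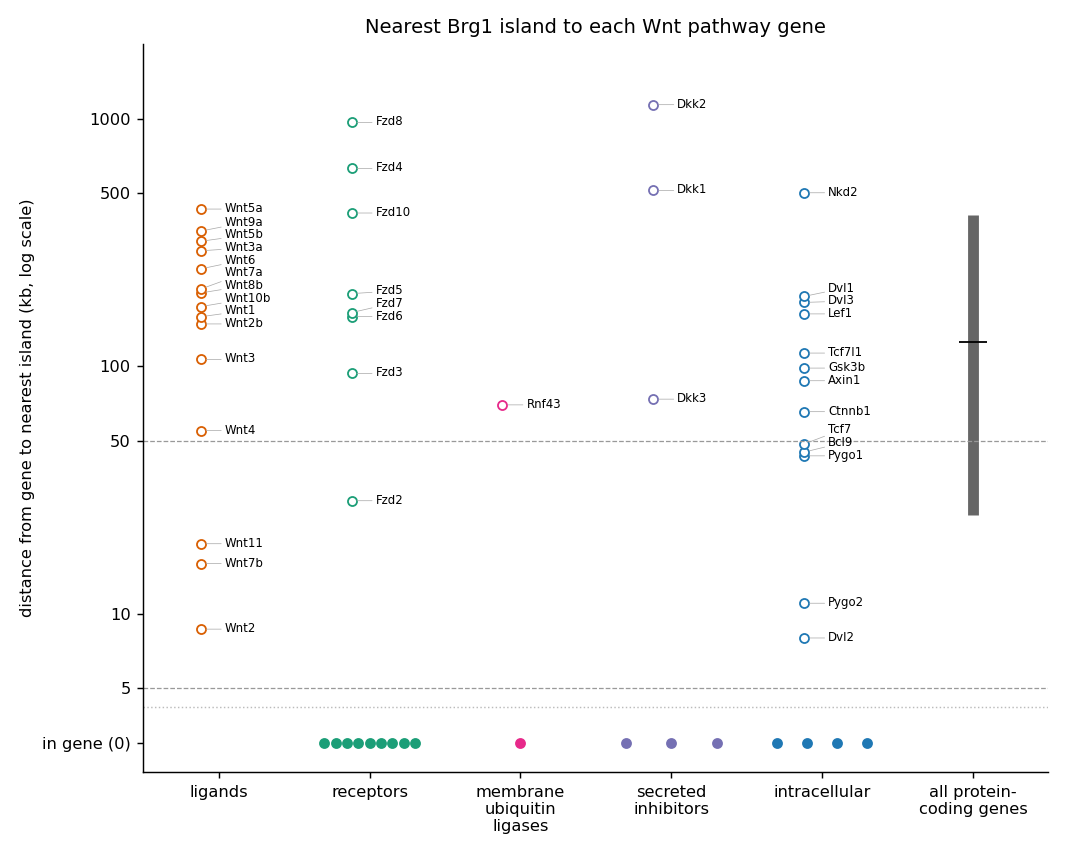
Distance from each member to the nearest island (y axis, kb, log scale, with genes that contain or touch an island at the bottom) by role; the grey bar and tick at the right give the quartiles and median (125 kb) over all protein-coding genes. Dashed lines mark 5 and 50 kb. The 15 ligands lie between 8.67 and 431 kb, and 9 receptors lie at 0.

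Genes known as feedback targets of the pathway were split evenly. Axin2, Nkd1, Znrf3 and Lgr5 had an island in the gene or within 5 kb, and Lef1, Tcf7, Rnf43 and Dkk1 did not, which made 4 of 8 (Wilson 95% interval 21.5 to 78.5). Among the other members 13 of 49 (26.5%, interval 16.2 to 40.3) had one. The feedback targets had a median length of 73.0 kb, against 31.0 kb for the rest, and at the shares of their length classes 1.97 of the 8 would have one.

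Across the members, 22 islands lay in a gene or within 5 kb. They held 56 to 154 reads with a median of 73, against 68 over all islands, and were 1600 to 5600 bp wide with a median of 2600 bp, against 2200 bp. By reads, 5 of the 22 (at Ror2, Axin2, Ror1, Nkd1 and Tcf7l2) were among the 1464 islands of the list with at least 86 reads. Set beside islands of their own width, 8 of the 20 that could be ranked were above the middle. Their density was 4.76 to 7.67 reads per 200 bp with a median of 5.72, against 6.27 over all islands. The reads of the member islands were therefore ordinary for this list, and larger counts went with wider islands.

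**Figure D5:**
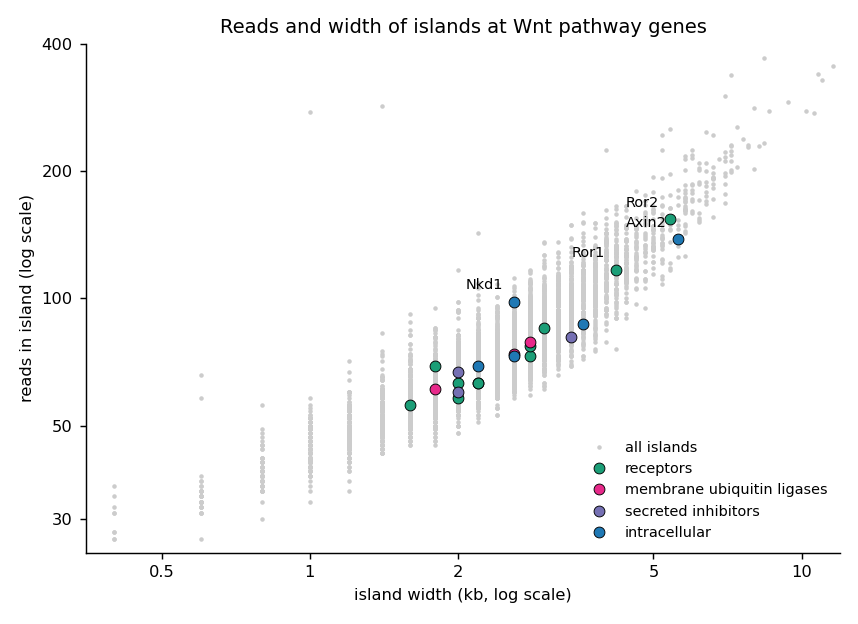
Reads (y axis, log scale) against width (x axis, kb, log scale) of all islands (grey; 22 islands beyond the axes are not drawn) and of the 22 islands in or within 5 kb of the members, coloured by role. Member islands follow the band of all islands, with Ror2 (154 reads), Axin2 (138) and Ror1 (117) at the wide end and Nkd1 (98) at the upper edge of its width.

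By position, 8 of the 22 islands crossed an end of the gene and 10 lay inside it, over 5 kb from both ends. In 6 of the 17 members (Lgr5, Nkd1, Ror1, Ror2, Ryk and Wif1) the islands lay at such inner positions only. Within 5 kb of a gene end, 11 of 57 members had an island, against 13.1% of all protein-coding genes, and at the shares of their length classes 8.26 would. Of the 22 islands, 3 also lay in or within 5 kb of another protein-coding gene (Baz1b at Fzd9, Ccdc34 at Lgr4 and A930009A15Rik at Lgr5).

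Distal islands were found at 12 of 57 members (21.1%, interval 12.5 to 33.3), against 22.1% of all protein-coding genes. Without distal islands in or within 5 kb of another protein-coding gene, 7 of 57 members (12.3%) had one, against 4.77% of all protein-coding genes, so the closeness of the shares depended on this choice. They numbered 19, with 27 to 131 reads. The member was the nearest protein-coding gene for 10 of the 19 (at Wnt7b, Wnt2, Wnt11, Sfrp1 and Tcf7l2), and 7 lay in or within 5 kb of another gene. A distal island was the only kind for 9 members, and 31 of the 57 had none of either kind, against 66.9% of all protein-coding genes. By role, 12 of 15 ligands, 7 of 17 receptors and 8 of 17 intracellular members had neither.

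A second list held 60 further genes of the pathway, among which 15 (25%, interval 15.8 to 37.2) had an island in the gene or within 5 kb, with 12.5 at the shares of their length classes. The 6 with the most reads were Tle3, a corepressor of TCF/LEF factors, with 149 reads, the corepressor gene Ctbp2 with 143, and Ccnd1 (cyclin D1) with 131. They continued with Celsr1, a planar cell polarity cadherin, with 91, Daam1, a formin that acts below Dishevelled, with 88, and Ctbp1 with 84. In groupings made after the values were seen, 4 of 6 Groucho and CtBP corepressor genes had an island (Tle2, Tle3, Ctbp1 and Ctbp2), with 1.58 at the shares of their length classes. The island of Tle2 lay outside the gene, 2484 bp away, and in or within 5 kb of Tle5. Of 10 genes of planar cell polarity signalling 6 had one (Prickle1, Prickle2, Celsr1, Celsr2, Daam1 and Ptk7), with 2.68 at the shares of their length classes. Over all protein-coding genes the share was 16.9%. The 4 other Wnt ligand genes on the list had no island in the gene or within 5 kb. Neither did the 4 R-spondin genes, whose products are the ligands of Lgr4 and Lgr5. Of the 4 ligand genes 0.639 would have one at the shares of their length classes, and of the 4 R-spondin genes 0.951. The lack of islands therefore set neither group apart.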

How the data were processed

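The data were 1 Brg1 ChIP-seq library from SmoM2 medulloblastoma, deposited as a SICER island list without column names. Bowtie 0.12.7, Picard 1.127 and SICER 1.1, with the builds mm9 and mm10, are named in the submitters' processing notes. Their order, the SICER settings and any use of the input were not given in the sources used here. As deposited by the authors, the whole number per island was taken as a read count, from its values. It is not scaled for depth or width, and the total depth of the ChIP library is unknown.

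Starts were read as 0-based with an inclusive last base, which makes 5724 of 5727 widths multiples of 200 bp, and are printed 1-based. The build was checked as mm10. Islands lay over a promoter window of 1532 genes as deposited and of 176 genes when moved by 100 kb. Gene extents and promoter windows came from RefSeq on GRCm38.p6, and strand only from those windows, so other genes are described by lower- and higher-coordinate ends.

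Genes were assigned with Python 3.11.15, pandas 2.3.3 and SciPy 1.17.1, and the assignment was tested on simulated islands. Intervals are Wilson 95% for shares and exact Poisson 95% for reads, for counting error only; a count of 0 is given with the share that 3 counts would make. Reads were ranked among islands of equal width where at least 20 others existed. No set test was run. The members, lists and alternatives were chosen with earlier results of these data known. Members with an island were named in full, distal islands by count with the nearest and strongest values, and the second list by its 6 highest counts; genes named beyond this were chosen after their values were seen.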

Additional observations from a re-analysis of the deposited data

How the results depend on the processing

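Of 70 alternative counts, 55 stayed within 1.5 times the reported count. With the 1464 islands of at least 86 reads, 5 members, 2 receptors, 0 secreted inhibitors, 0 membrane ubiquitin ligases and 5 other pathway genes had an island (5.21% of all genes), and 4 members had a distal one (6.75% of all genes). With islands at or above the median count, these were 1 secreted inhibitor and 8 other pathway genes (9.66% of all genes), and 7 members with a distal island (12.3% of all genes). Within 5 kb of a gene end, 11 members and 5 receptors had an island (13.1% of all genes), and the intervals of receptors and ligands overlapped. In a 10 kb window 1 ligand did, Wnt2. The distal count was 6 members (10.5%) with a limit of 20 kb, against 8.77% of all genes, and 23 (40.4%) with 100 kb, against 37.9%. It was 7 (12.3%) without islands at other protein-coding genes, against 4.77%, where the members no longer stood close to all genes. These alternatives count smaller or larger sets of islands and windows, and the cause of the shifts was not tested. The ligand count was 0 under the other 8 alternatives. These could only take islands away, so a count of 0 was fixed in advance, and these zeros are among the 55. Receptors were above ligands under all 9, but only the 10 kb window could add a ligand. In that window 9 of 17 receptors and 1 of 15 ligands had an island.

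No paired analysis was possible because there was 1 ChIP library. For the same reason no replicate could be left out, and differences between roles rest on 2 to 17 genes each.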
